A study of Mus musculus with 6 samples.

Results

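The 10 genes described here write, copy, oxidise or remove the methyl mark on DNA cytosines, or make the metabolite that the oxidation needs. They are Dnmt1, Uhrf1, Dnmt3a, Dnmt3b, Tet1, Tet2, Tet3, Tdg, Idh1 and Idh2. They were chosen by gene symbol from the 46983 genes of a mouse RNA-seq count table, and each symbol matched 1 row. The cells carried MLL-AF9, a fusion oncogene of acute myeloid leukemia delivered by retrovirus. It was put into bone marrow stem and progenitor cells (LSK cells, sorted for c-Kit and Sca-1 without lineage markers) of C57BL/6J donors that were either Alox5-/- or wild type (WT). Alox5 encodes 5-lipoxygenase, the first enzyme of leukotriene synthesis, and both groups were untreated. The series' design text says that transduced GFP-positive cells went into irradiated C57BL/6J recipients. Each group had 3 libraries, labelled as biological replicates. No source used here says whether these came from separate donors or recipients, or gives the animals' age, so the p-values reflect no more than how these libraries scatter.

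In mammals, DNMT1 copies methylation onto the new DNA strand after replication, and UHRF1 brings it to the half-methylated sites. DNMT3A and DNMT3B place methyl groups on sites that had none. TET1, TET2 and TET3 oxidise methylcytosine in a reaction that consumes 2-oxoglutarate, and TDG, a DNA glycosylase, cuts out the most oxidised forms. IDH1 in the cytosol and IDH2 in mitochondria make 2-oxoglutarate. DNMT3A, TET2, IDH1 and IDH2 are well known as recurrently mutated genes of human acute myeloid leukemia. The counts measure transcripts only, and neither DNA methylation nor protein was measured.

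Of the 10 genes, 7 were lower in Alox5-/- cells (Uhrf1, Idh1, Tet1, Tet2, Tdg, Tet3 and Dnmt1), Dnmt3a alone was higher, and Dnmt3b and Idh2 were not called. Across all 13705 genes tested, 53.8% were called by the same rule, 26.8% higher and 27.0% lower. The CPM values (TMM-scaled counts over library size) of the groups did not overlap for the 8 called genes, as for 60.0% of all tested genes (29.7% higher and 30.2% lower in Alox5-/-). Pairs of CPM values joined by "against" give Alox5-/- first and WT second, each as mean ± SD over 3 libraries where an error is shown. All 10 passed the expression filter, but Tet1 passed through its WT libraries alone and therefore had to be lower. The median log2 fold change of the 10 was -0.16, and it was 0.00 over all tested genes. Only Tet1 was both called and changed at least 1.5-fold, as were 11.5% of all tested genes. With upper-quartile scaling the split became 2 higher and 6 lower, because Dnmt1 lost its call and Idh2 gained one.

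**Figure D1:**
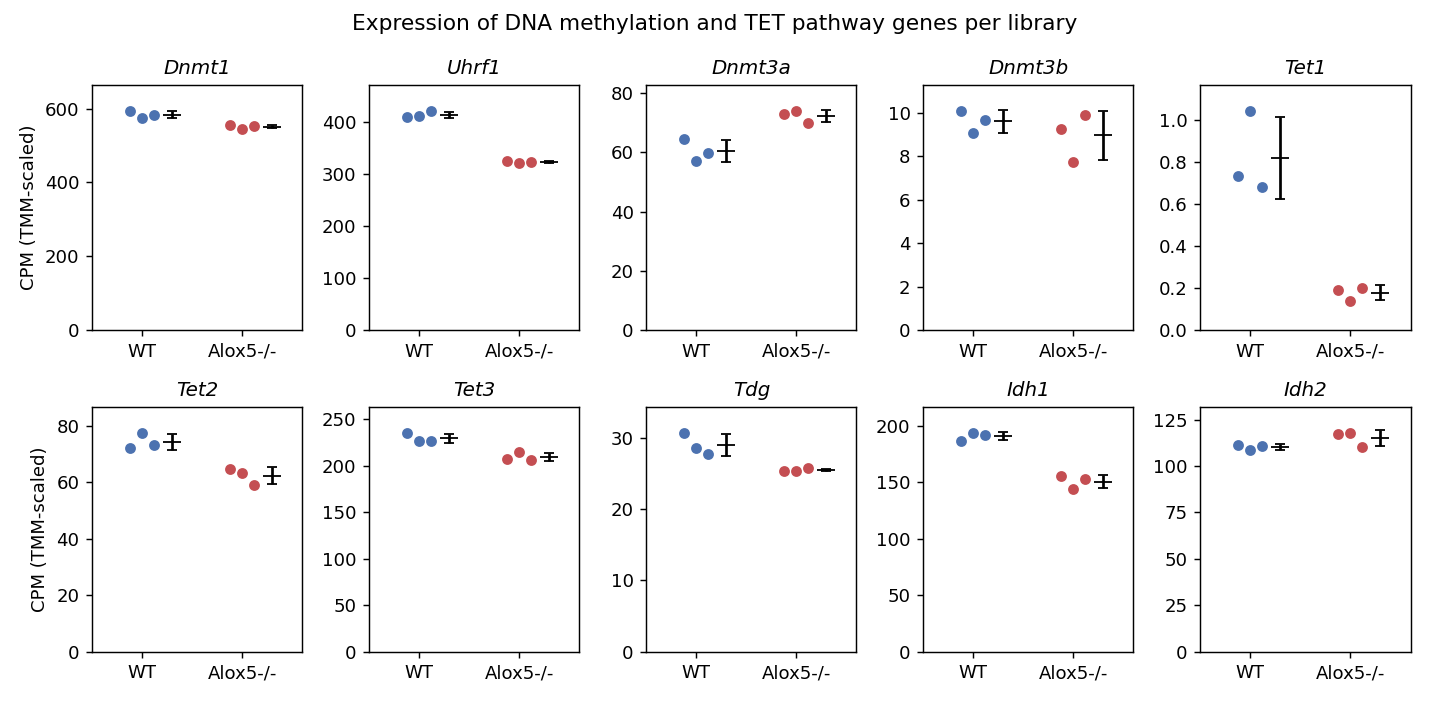
Expression of the 10 genes as TMM-scaled CPM, with 1 point per library (3 WT, 3 Alox5-/-) and the mean ± SD beside each group. Each panel has its own axis starting at 0. The groups are apart for 8 genes and overlap for Dnmt3b and Idh2.

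Sequencing depth was 28985597 to 38695948 gene counts per library. Alox5 itself was 64.2 ± 1.87 against 105 ± 1.87 CPM (SD over 3 libraries), so that transcript was still present in the libraries labelled Alox5-/-. No source used here says which part of the gene the allele alters. Of the markers of the sorted cells, Kit was 136 against 160 CPM and Ly6a, which encodes Sca-1, was only 0.763 against 1.06 CPM in Alox5-/- and WT. Summed over 7 progenitor and MLL fusion markers, CPM ranged from 944 to 972 in Alox5-/- and from 891 to 926 in WT. Cd34 (227 against 177 CPM) and Hoxa9 (307 against 244 CPM) rose, while Kit and Hoxa10 (140 against 176 CPM) fell. Meis1 and Ly6a were not called, and Mecom was not tested. Summed markers of T and NK cells reached at most 0.131 CPM in any library, those of erythroid cells 0.812 CPM, of B cells 1.70 CPM, and of stromal and endothelial cells 0.889 CPM. Summed mast cell and basophil markers ranged from 54.7 to 59.7 CPM in Alox5-/- and from 123 to 134 CPM in WT. Most of that difference was Hdc (35.1 against 96.0 CPM), and Cpa3 fell as well (1.90 against 8.78 CPM). Mcpt8 (21.0 against 23.5 CPM) was not called, and Fcer1a, Tpsb2 and Cma1 were at 0 in all libraries. Summed macrophage markers ranged from 31.8 to 34.7 against 41.3 to 45.1 CPM, nearly all of it Adgre1, with Vsig4 at 0. Megakaryocyte markers ranged from 2.52 to 3.34 against 5.18 to 5.61 CPM. Among them Itga2b fell (1.84 against 3.98 CPM), while Gp9 was not called (1.01 against 0.998 CPM). The 8 myeloid markers summed to 3824 to 3954 against 3509 to 3808 CPM. The myeloid sum was mostly Ctsg (2712 against 2229 CPM, log2 fold change 0.28), which rose, as did Ly6g (0.53), while Mpo (65.6 against 197 CPM, -1.59), S100a8 (8.04 against 25.3 CPM, -1.66), Itgam (-0.21) and Elane (-0.17) fell and Prtn3 and Csf1r were not called. The part of these shifts in the results below was not tested. In such bulk samples, fewer cells of a type and less RNA per cell cannot be told apart.

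The promoters of the gene that rose and of the most clearly lower gene are shown because they differ in make-up. Both are the 250 bases before a RefSeq transcription start (GRCm38.p6, plus strand), hold no annotated exon of their gene, and run 5′ to 3′. Capitals mark matches on either strand to CCAAT, to the GC box, spelled GGGCGG, or to an E2F core. The first E2F core searched was TTCCCGC. The other core was TTGGCGC. No matches overlap in the printed stretches.
Uhrf1, chr17:56304063-56304312: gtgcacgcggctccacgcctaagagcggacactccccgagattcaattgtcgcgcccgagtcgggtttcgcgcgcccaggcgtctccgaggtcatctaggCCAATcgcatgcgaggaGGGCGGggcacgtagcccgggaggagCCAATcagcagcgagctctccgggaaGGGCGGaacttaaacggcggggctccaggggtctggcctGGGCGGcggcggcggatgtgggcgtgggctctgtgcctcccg
Dnmt3a, chr12:3806730-3806979: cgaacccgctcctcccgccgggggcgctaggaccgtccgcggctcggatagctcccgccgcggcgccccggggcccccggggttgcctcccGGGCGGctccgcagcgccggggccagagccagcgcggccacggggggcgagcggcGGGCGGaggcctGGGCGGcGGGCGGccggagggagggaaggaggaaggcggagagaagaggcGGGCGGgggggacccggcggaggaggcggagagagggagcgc

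RefSeq gave 16 promoter windows of 300 bases (250 before and 50 after the start) for the 10 genes, all 10 of which were matched. The window of the printed Uhrf1 stretch held 2 CCAAT matches and 3 GC boxes. That of the printed Dnmt3a stretch held 6 GC boxes but no match to the other motifs. The last of these GC boxes lies after the start and so is not printed. Each was chosen among the windows of its gene, 2 for Uhrf1 and 3 for Dnmt3a, so their contrast depends on that choice. The CCAAT motif was present in 8 of the 16 windows, covering 6 genes, and in 37.4% of all 32851 windows of that length. An E2F core was present in 2 windows, the other Uhrf1 window and a Dnmt1 window, against 6.81% of all windows. A GC box was present in 13 windows, against 35.7%. CG dinucleotides, the sites these enzymes act on, numbered 2 in a Dnmt1 window to 57 in that of Tet2, and 15 of the 16 windows were above the median of 7 for all windows. Gene-level counts do not show which start was used.

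Maintenance of methylation was represented by Uhrf1 and Dnmt1, the most abundant of the 10 per length, and Uhrf1 fell further. Uhrf1 (ENSMUSG00000001228, chromosome 17, 56303321 to 56323486, plus strand, mm10) was 325, 321 and 325 CPM in the Alox5-/- libraries and 411, 412 and 422 CPM in WT. The groups were far apart and each was tight. Uhrf1 fell by 22.1% (log2 fold change -0.36; SE 0.03; adjusted p by edgeR = 9.29e-08), and stayed between -0.37 and -0.33 in every refit. Dnmt1 (chromosome 9, 20907209 to 20959888, minus strand) was 555, 546 and 553 CPM against 593, 575 and 583 CPM.

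All 3 Alox5-/- libraries lay below WT for Dnmt1 too, which fell by 5.52%. Its log2 fold change of -0.08 (SE 0.03; adjusted p by edgeR = 0.0261) belonged to the call lost most often. It was lost with upper-quartile scaling (adjusted p = 0.14), with a stricter filter of 5 CPM in every library of a group (0.0663) and with no filter (0.073). It was also lost without Alox5-/- replicate 1 (0.0546), 2 (0.0925) or 3 (0.0868) and without WT replicate 1 (0.115) or 3 (0.0533). The balance between the enzyme and its guide moved more than Dnmt1 itself. Within each library the log2 ratio of Dnmt1 to Uhrf1 counts was 0.77, 0.77 and 0.77 in Alox5-/- and 0.53, 0.48 and 0.47 in WT (exact two-sided permutation p = 0.1). That is the smallest p that 3 against 3 allows, and over the 20 within-library values computed a p of 0.1 became 0.125 after Benjamini-Hochberg adjustment (exact permutation).

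Both genes are known to be transcribed with DNA replication, and replication genes were lower as well. In a list of 22 S phase genes, 18 fell and 2 rose, 2 passed no threshold, and the median log2 fold change was -0.21. The share called was 90.9%, against 53.8% of all tested genes. The largest falls by p were in Fen1, the flap endonuclease (-0.59), Mcm4 of the replicative helicase (-0.48), cyclin E1 (Ccne1, -0.66), the ribonucleotide reductase subunit Rrm1 (-0.37) and Mcm5 (-0.34). Pola1 and Prim1, subunits of the polymerase that starts DNA strands, were not called (-0.08 and -0.03). In a list of 16 G2 and mitosis genes, 14 fell (87.5%) and 2 passed no threshold, at a median of -0.23. Plk1 (-0.42), Tpx2 (-0.32), Cdk1 (-0.33), Top2a (-0.28) and Birc5 (-0.27) led these, and Ccnb2 and Nusap1 were not called (-0.02 and -0.09). Summed S phase CPM was 4596, 4548 and 4607 in Alox5-/- and 5382, 5436 and 5448 in WT.

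Set against that sum, Dnmt1 and Uhrf1 moved in opposite directions. The log2 ratio of Dnmt1 to the S phase sum was -3.06 ± 0.00545 in Alox5-/- and -3.22 ± 0.0308 in WT (SD over 3 libraries), higher in all 3 Alox5-/- libraries (exact two-sided permutation p = 0.1). The log2 ratio of Uhrf1 to the same sum was -3.82 ± 0.00291 against -3.71 ± 0.0146, lower in all 3 Alox5-/- libraries (exact two-sided permutation p = 0.1). Dnmt1 was thus less reduced, and Uhrf1 more reduced, than the summed S phase transcripts. The differences were 0.15 and -0.13 when the G2 and mitosis sum was used in its place. Single S phase genes spread more widely, from -0.66 (Ccne1) to 0.19 (Rfc4) on the log2 scale. Both Dnmt1 (-0.08) and Uhrf1 (-0.36) lay within that range. The part of a change in cell cycle in these values was not tested.

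**Figure D2:**
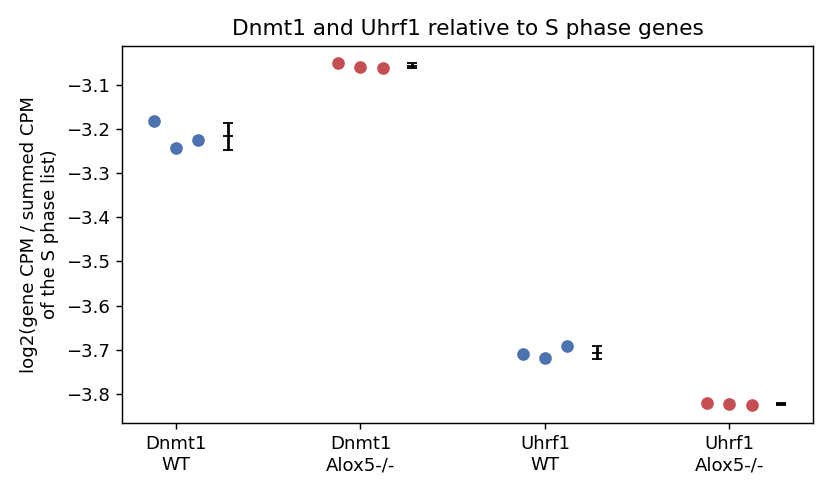
Log2 ratio of Dnmt1 and of Uhrf1 CPM to the summed CPM of 22 S phase genes, with 1 point per library and mean ± SD beside each group. Alox5-/- libraries lie above WT for Dnmt1 (-3.06 against -3.22) and below WT for Uhrf1 (-3.82 against -3.71).

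Dnmt3a was the only gene of the 10 to rise, while Dnmt3b stayed within its spread. Dnmt3a (chromosome 12, 3806007 to 3914443, plus strand) was 73.0, 73.9 and 70.0 CPM in Alox5-/- and 64.7, 57.1 and 59.6 CPM in WT. Its lowest Alox5-/- library was above its highest WT library. The rise was 19.7% (log2 fold change 0.26; SE 0.05; adjusted p by edgeR = 0.000225), and it was called in every refit. Dnmt3b (chromosome 2, 153649450 to 153687730, plus strand) was 9.27, 7.73 and 9.92 CPM against 10.1, 9.06 and 9.69 CPM. The groups overlapped, and the log2 fold change was -0.10 (SE 0.09; adjusted p by edgeR = 0.388), or 0.0039 without Alox5-/- replicate 2.

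Relative to one another, the methyltransferases shifted toward Dnmt3a. RPKM, CPM per kilobase of exon, allows genes of different length to be compared. Dnmt3a made up 5.38, 5.55 and 5.19% of the summed RPKM of Dnmt1, Dnmt3a and Dnmt3b in Alox5-/-, and 4.50, 4.13 and 4.24% in WT. Dnmt1 remained by far the main transcript, at 92.5 ± 0.0914% in Alox5-/- and 93.5 ± 0.267% in WT (SD over 3 libraries). Neither share overlapped between the groups (exact two-sided permutation p = 0.1 for each). Dnmt3b was 2.17 ± 0.257% against 2.22 ± 0.0801%, overlapping.

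The 3 Tet genes were all lower, from a large relative fall in the barely detected Tet1 to a small fall in the abundant Tet3. Tet1 (chromosome 10, 62804570 to 62908996, minus strand) had 6, 4 and 6 counts in the Alox5-/- libraries and 22, 31 and 26 in WT. In CPM these were 0.193, 0.137 and 0.202 against 0.737, 1.04 and 0.681, with no overlap. The log2 fold change was -2.17 (SE 0.34; adjusted p by edgeR = 7.00e-05), or -2.30 to -1.97 over the alternatives that tested it. Tet1 passed the expression filter through its WT libraries alone, so that p-value is no independent support for its direction. Pooled counts of 16 and 79 gave a ratio of WT to Alox5-/- of 4.55, with an exact 95% interval of 2.64 to 8.35. The interval covers counting error alone, because counts were pooled over the libraries of a group and their scatter was left out. PCR copies of a molecule are not marked in such counts, so even that error may be understated.

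Tet2 and Tet3 carried nearly all Tet transcript. Tet2 (chromosome 3, 133463679 to 133545139, minus strand) was 64.7, 63.3 and 58.8 CPM in Alox5-/- and 71.96, 77.4 and 73.3 CPM in WT. It fell by 16.1% (log2 fold change -0.25; SE 0.04; adjusted p by edgeR = 0.000187). Tet3 (chromosome 6, 83362373 to 83459084, minus strand) was 208, 215 and 207 CPM against 235, 226 and 227 CPM. It fell by 8.68% (log2 fold change -0.13; SE 0.03; adjusted p by edgeR = 0.00291). The groups did not overlap for either gene, and both calls held in every refit.

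Within the family, the balance of Tet2 and Tet3 overlapped between the groups. Tet3 made up 77.2 ± 0.791% of the summed Tet RPKM in Alox5-/- and 75.5 ± 1.06% in WT (SD over 3 libraries; exact two-sided permutation p = 0.2). Tet2 made up 22.7 ± 0.792% and 24.2 ± 1.01% (exact two-sided permutation p = 0.2). Tet1, which passed the filter through WT alone, made up only 0.0707 ± 0.0154% against 0.292 ± 0.0689%, without overlap (exact two-sided permutation p = 0.1).

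Tdg, the glycosylase that acts after the TET enzymes, was slightly lower. Tdg (chromosome 10, 82629828 to 82650799, plus strand) was 25.4, 25.4 and 25.8 CPM in Alox5-/- and 30.7, 28.7 and 27.7 CPM in WT. It fell by 11.99% (log2 fold change -0.18; SE 0.05; adjusted p by edgeR = 0.00909), and the call was lost without WT replicate 1, its highest library (log2 fold change -0.14, edgeR adjusted p = 0.058). Tdg has a pseudogene, Tdg-ps, with up to 24 counts in a library, and shares 367 exon bases with Glt8d2 on the opposite strand, which had up to 38. The deposited table keeps ambiguous reads and reads aligned to several places in rows of their own, so reads shared with these genes may be missing from Tdg and its level is uncertain.

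**Figure D3:**
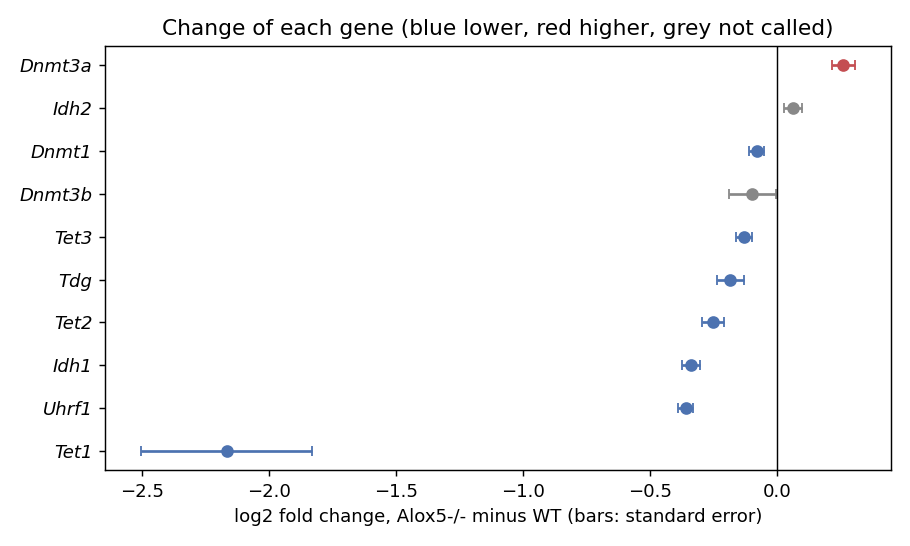
Log2 fold change of each of the 10 genes, Alox5-/- minus WT, with bars for the SE, and colour for the call at an adjusted p of 0.05. Tet1 lies at -2.17 with the widest bar, the other lower genes between -0.36 and -0.08, and Dnmt3a at 0.26.

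The isocitrate dehydrogenases differed from each other. Idh1 (chromosome 1, 65158616 to 65186500, minus strand) was 155, 144 and 153 CPM in Alox5-/- and 187, 194 and 191 CPM in WT. It fell by 21.0% (log2 fold change -0.34; SE 0.04; adjusted p by edgeR = 1.40e-06), and the groups were well apart. Idh2 (chromosome 7, 80094846 to 80115392, minus strand) was 117, 118 and 110 CPM against 112, 109 and 111 CPM. Its groups overlapped (log2 fold change 0.06, SE 0.04; adjusted p by edgeR = 0.158), although it was called higher with upper-quartile scaling (0.09, adjusted p = 0.0441).

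The cytosolic share of the pair was therefore lower in Alox5-/- cells. Idh1 made up 55.3, 53.3 and 56.4% of the summed RPKM of Idh1 and Idh2 in Alox5-/- and 61.0, 62.5 and 61.8% in WT. The groups did not overlap (exact two-sided permutation p = 0.1). The log2 ratio of Idh1 to Idh2 CPM was 0.39 ± 0.0931 against 0.79 ± 0.0457 (SD over 3 libraries), a value that no library scaling can move.

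**Figure D4:**
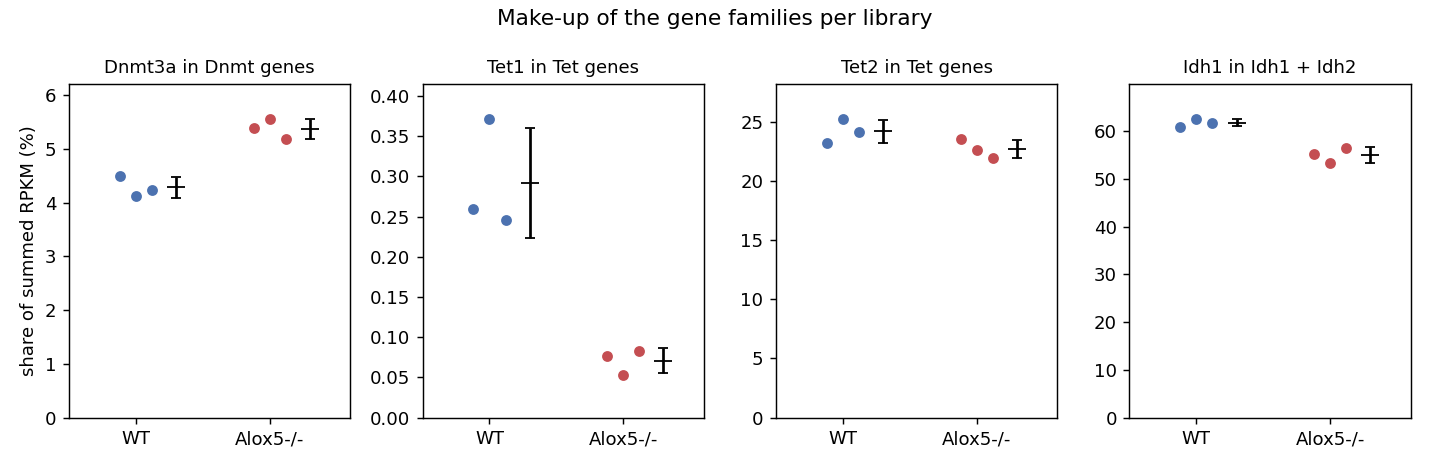
Share of the summed RPKM of each family, in percent, with 1 point per library and mean ± SD beside each group. Each axis starts at 0. Dnmt3a (5.38% against 4.29%) lies higher in Alox5-/-, Tet1 and Idh1 (55.0% against 61.8%) lie lower, and the Tet2 libraries overlap.

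Per length, the 10 genes spanned a wide range, and the order of Tet2 and Dnmt3a was exchanged between genotypes. In WT the order by mean RPKM was Uhrf1 (97.5), Dnmt1 (79.1), Idh1 (68.8), Idh2 (42.6), Tet3 (13.7), Tdg (5.41), Tet2 (4.40), Dnmt3a (3.63), Dnmt3b (1.88) and Tet1 (0.0531). In Alox5-/- it was Uhrf1 (76.0), Dnmt1 (74.7), Idh1 (54.4), Idh2 (44.4), Tet3 (12.6), Tdg (4.75), Dnmt3a (4.34), Tet2 (3.69), Dnmt3b (1.76) and Tet1 (0.0115). No neighbours in either order overlapped in their libraries. With the length of the longest transcript instead, Dnmt1 stood above Uhrf1 in Alox5-/- (93.9 against 90.2) and below it in WT (99.4 against 116). Idh1 and Idh2, and Dnmt3a and Tdg, then overlapped in Alox5-/-, as did Tdg and Tet2 in WT. Dnmt3a stood above Tet2 in Alox5-/- and below it in WT with either length. The log2 ratio of Dnmt3a to Tet2 CPM was 0.17, 0.22 and 0.25 in Alox5-/- and -0.15, -0.44 and -0.30 in WT (exact two-sided permutation p = 0.1; this pair was chosen after its values were seen).

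Most partners of the methyltransferases fell. Of 12 listed and tested, 7 fell and 2 rose, 3 passed no threshold, and the median log2 fold change was -0.17 against 0.00 over all tested genes. Called genes made up 75.0% of the list, against 53.8% of all tested genes. The falls were led by Lig1, the replicative DNA ligase (153 ± 2.01 against 210 ± 5.81 CPM; log2 fold change -0.46, edgeR adjusted p = 2.47e-08). Hells, a chromatin remodeller that DNA methylation needs, was 197 ± 3.22 against 247 ± 12.2 CPM (-0.33). The replication clamp Pcna (-0.22), also on the S phase list, Usp7, a deubiquitinase bound to DNMT1 and UHRF1 (-0.18), and Dnmt3l, a cofactor of the de novo enzymes without catalytic activity (-0.39), fell too. Chosen after their values were seen, Uhrf2, the paralog of Uhrf1, rose by 0.22 and Trdmt1, which methylates transfer RNA, rose by 0.34 on the log2 scale. Nsd1, Cdca7 and Zbtb24 were not called (0.04, -0.05 and 0.07).

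Genes that act with or after the TET enzymes included more that rose than fell. Of 21 listed, 18 were tested, and 8 rose, 3 fell and 7 passed no threshold, at a median of 0.14. That is 61.1% called, against 53.8% of all tested genes (26.8% higher and 27.0% lower). Gadd45a, a stress gene linked to demethylation, was 151 ± 20.2 against 47.0 ± 2.77 CPM (log2 fold change 1.68, edgeR adjusted p = 1.71e-10). Apobec1, a cytidine deaminase of RNA, was 48.1 ± 1.92 against 27.0 ± 0.0068 CPM (0.83). Neil1, a glycosylase of base excision repair, was 8.03 ± 0.43 against 4.77 ± 0.438 CPM (0.76), and Ogt, the O-GlcNAc transferase that binds TET proteins, was 324 ± 26.7 against 266 ± 6.61 CPM (0.28). Apex1, the endonuclease that cuts the abasic site left by TDG, fell from 147 ± 4.2 to 105 ± 3.81 CPM (-0.48; edgeR adjusted p = 4.90e-08). Vprbp, Mbd4 and Xrcc1 were not called (-0.05, -0.06 and 0.02). The median was 0.08 both without Alox5-/- replicate 2 (8 higher and 2 lower) and with the stricter filter (15 tested, 6 higher and 2 lower).

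Of 9 tested genes listed as readers of methylated CpG sites, 3 rose, 2 fell and 4 passed no threshold. The median of the 9 was -0.04. Whether each encoded protein binds such sites was not tested. The share called, 55.6%, was close to the 53.8% of all tested genes. Those that rose included the zinc finger readers Zbtb38 (0.43) and Zbtb4 (0.46), and Mbd3 (-0.25) and Mbd1 (-0.19) fell. Mbd6, Mbd2 and Zbtb33 were not called (-0.04, -0.04 and -0.11).

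The methyl donor cycle was split between its steps. Of 12 genes listed, 10 were tested, and 5 fell, 4 rose and 1 (Mtrr, -0.07) was not called, with a median of -0.10. That is 90.0% called, against 53.8% of all tested genes. Mat2a, which makes the methyl donor S-adenosylmethionine, was 515 ± 14.7 against 664 ± 20.7 CPM (log2 fold change -0.37, edgeR adjusted p = 3.24e-07). Methionine synthase Mtr (-0.35) and Mtap of methionine salvage (-0.43) fell. Those that rose included Ahcyl1, a relative of the hydrolase Ahcy, by 0.34 on the log2 scale.

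Most other genes that make or use 2-oxoglutarate were not called. Of 18 tested, 4 fell, 2 rose and 12 were not called, which is 33.3% called against 53.8% of all tested genes, with a median of -0.02. Got1, the cytosolic aspartate aminotransferase, stood apart at 110.0 ± 2.62 against 74.6 ± 1.64 CPM (0.56; edgeR adjusted p = 6.88e-09). Fumarase Fh1 (-0.14), Ogdh of the 2-oxoglutarate dehydrogenase (-0.13), the succinate dehydrogenase subunit Sdhd (-0.12) and Idh3a of the NAD-linked isocitrate dehydrogenase (-0.12) fell by small amounts. Sdha, Dlst and Glud1 were not called (0.06, 0.02 and -0.01). The number that rose was 6 with upper-quartile scaling, 4 with the stricter filter, and 1 with DESeq2, with the replicate block, and without Alox5-/- replicate 1 or 3 or WT replicate 1 or 2.

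**Figure D5:**
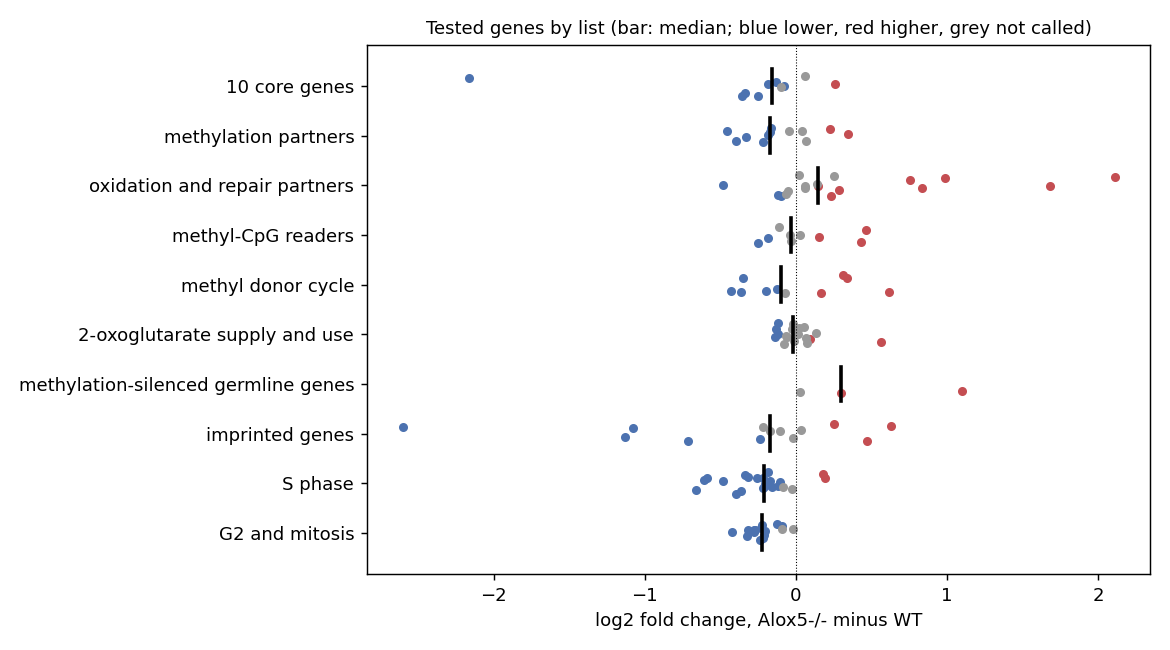
Log2 fold change, Alox5-/- minus WT, of every tested gene in the 10 core genes and in each list, with a bar at the list's median. The medians of core genes (-0.16), methylation partners (-0.17), imprinted (-0.17), S phase (-0.21) and G2 and mitosis genes (-0.23) lie below 0. Those of the methyl donor cycle (-0.10), methyl-CpG readers (-0.04) and 2-oxoglutarate genes (-0.02) lie less far below. Those of oxidation and repair partners (0.14) and of the 3 tested germline genes (0.30) lie above.

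Most germline genes that DNA methylation is known to keep silent were not detected in either genotype. Of 16 listed, 13 did not pass the filter, 9 of them with no count in any library and none above 0.0684 CPM. A count of 0 allows up to 3 counts in a library. The 3 that passed were Brdt, a testis bromodomain protein, at 2.13 ± 0.0513 against 1.004 ± 0.125 CPM (1.10; edgeR adjusted p = 5.79e-05), Ddx4, a germ cell helicase, at 7.0 ± 1.02 against 5.67 ± 0.513 CPM (0.30; edgeR adjusted p = 0.0336), and Piwil2, at 4.94 ± 0.212 against 4.84 ± 0.31 CPM (0.02, not called). The Ddx4 libraries of the groups overlapped. Only 1 of the 3 genes was called with DESeq2, and likewise without Alox5-/- replicate 1 or 3 or WT replicate 1 or 2. The median of the 3 was 0.30, or 0.18 without Alox5-/- replicate 1.

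Genes listed as imprinted, which can be expressed from a single parental copy through methylation, included some that rose and some that fell. Of 29 listed, 13 passed the filter, and 5 fell, 3 rose and 5 passed no threshold, at a median of -0.17. Calls covered 61.5%, against 53.8% of all tested genes. With the stricter filter, which left 8 tested, 3 rose and 1 fell, at a median of 0.02. Of the 5 that fell in the first count, Igf2r and Peg10, chosen after their values were seen, and Grb10 were under 1 CPM in both groups on average. Inpp5f, a phosphoinositide phosphatase, was 12.3 ± 0.658 against 7.93 ± 0.723 CPM (0.63), the splicing-related gene Zrsr1 rose by 0.47 and Gnas, the stimulatory G protein subunit, by 0.25 on the log2 scale. Grb10, a growth factor receptor adaptor, fell from 0.833 ± 0.091 to 0.135 ± 0.0904 CPM (-2.60; edgeR adjusted p = 4.55e-05) and passed the filter through WT alone. Cdkn1c, a cell cycle inhibitor, fell by 0.71 on the log2 scale. Ube3a, H13 and Mcts2 were not called (-0.11, -0.02 and 0.03). The counts do not separate parental copies, so whether any listed gene was expressed from a single copy in these cells was not tested.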

How the data were processed

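The authors deposited raw read counts per gene, with no normalization. HTSeq, DESeq2 and the mouse build mm10 are named per the submitters' processing notes, while no source used here gives versions, aligner, annotation release or strand setting. Per the labels, poly-A RNA was amplified with a SMARTer kit. Rows of the table without a gene name (39.1 to 40.1% of a library, of which reads aligned to several places made up 24.4 to 24.8% of the library and ambiguous reads 0.523 to 0.547%) entered neither library sizes nor tests. Differential expression was computed over 13705 genes in R 4.3.3 with edgeR 4.0.16: TMM scaling, the default expression filter (minimum count 10), and a quasi-likelihood model with genotype as its sole term, Benjamini-Hochberg adjusted over all genes tested, threshold 0.05. Standard errors (SE) came from the coefficient and its F statistic, and the scripts were tested on simulated data. RPKM is CPM per kilobase of merged GENCODE vM21 exons of the same build. Ratios and shares within a library were compared by exact two-sided permutation of the 6 libraries with scipy 1.17.1. DESeq2 1.42.0 and limma-voom (limma 3.58.1), other scalings and filters, a robust fit, a replicate block and libraries left out were alternatives.

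The genes and lists were chosen with earlier results of these data known. Named were all 10 genes, Alox5, and in each list up to 5 called members by smallest p and 3 uncalled by highest mean. Any other gene named was chosen after its values were seen. Some genes that the rule names are not reported here.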

Additional observations from a re-analysis of the deposited data

How the results depend on the processing

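Of the 10 genes, 8 were called with DESeq2, limma-voom, DESeq2 size factors, the robust fit and upper-quartile scaling (there with 2 higher rather than 1). A minimum change of 1.5-fold left 1. The count was 6 to 8 with a library left out, 1 of them higher and 5 to 7 lower. Tet1 was not tested with the stricter filter. Over 139 fits of single genes, 128 kept direction and call. Dnmt1 lost its call in 8 and Tdg in 1, Idh2 gained one, and Dnmt3b, at -0.10 on the log2 scale, ran from -0.17 to 0.0039 with a library left out, the latter without Alox5-/- replicate 2. With longest-transcript lengths the differences in share were -0.148 (Tet1), -1.38 (Dnmt1) and 1.43 (Dnmt3a) percentage points, against -0.221, -1.04 and 1.09. The Dnmt3b share difference, -0.0502 points, ran from -0.162 to 0.0902 with a library left out, the latter without Alox5-/- replicate 2. The cause was not tested. Groups of 3 libraries limit precision, as do the few Tet1 counts.

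Same-numbered libraries correlated at -0.023, -0.077 and 0.022 in their deviations from the group means, so no pairing by number was seen. With 3 libraries per group, such values cannot exclude one. With the replicate number as a block, 8 of the 10 genes were called, 1 higher and 7 lower, and 7029 of all genes against 7379.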
